A study of Arabidopsis thaliana with 12 samples.

Results

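Of 3117 m6A peaks that the authors list as differing between a dcl1 mutant and wild-type Arabidopsis thaliana, 2906 are annotated as 3′ UTR. Of these, 517 peaks (17.8%) overlap by at least 1 base the annotated spans of 2 or more genes of the expression table, and they are described here. They cover 881 genes in 444 neighbouring pairs; 514 peaks lie over 2 genes and 3 over 3 genes. The question is how the genes under such a peak are laid out, which way its m6A moved, and what the RNA of each gene did.

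N6-methyladenosine (m6A) is the most common internal modification of eukaryotic mRNA. In plants it is written by a complex that includes MTA and MTB, removed by ALKBH9B and ALKBH10B, and bound by ECT proteins, and most of it lies in the 3′ UTR near the stop codon and the poly(A) site. Many Arabidopsis genes are tightly packed, and convergent neighbours, transcribed towards each other from opposite strands, often overlap at their 3′ ends. A fragment from such an overlap belongs to either gene unless its strand is known.

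RNA came from 20-day-old plants of ecotype Col-0, either wild type or mutant for DCL1, the Dicer-like enzyme that cuts microRNAs from their precursors. The dcl1 allele is not named in the labels. The source is labelled leaf, but the extraction text and the design text name seedlings. Poly(A) RNA was fragmented, part was bound by an m6A antibody, and libraries were made from the bound and the input RNA, with 3 replicates per genotype and fraction. Plants were grown without special treatment, and no other allele or agent is listed for either genotype.

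The labelled genotype was checked on DCL1, which itself lies under 2 of these peaks. Its input level was 5.08, 4.53 and 6.0 FPKM (fragments corrected for gene length and for library total) in wild-type replicates 1 to 3, and 0.604, 0.406 and 0.632 FPKM in those of dcl1. The groups did not overlap, and the mean was 9.51-fold lower in dcl1. All 4 leaf markers were abundant, averaging 1916 to 16619 FPKM over the 6 libraries. Of them RCA and LHCB2.1 fell (log2 -0.41 and -0.23), CAB1 rose (log2 0.36), and RBCS1A had a change of -0.22 (limma adjusted p = 0.078). The root markers IRT1, CASP1 and PLT2 and the seed markers CRA1 and OLE1 averaged from 0.00455 to 0.270 FPKM. The floral gene AP3 had 2.09 and 4.14 FPKM, a rise (limma adjusted p = 0.019). Its part in the results was not tested, and in RNA from whole organs, fewer cells of a type and less RNA per cell cannot be told apart. FPKM give no read depth, so depth is unknown.

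The pairs were mostly convergent. Of the 444 pairs, 404 (91.0%) were convergent, 22 were nested on the same strand, 10 nested on opposite strands and 8 tandem, and 0 were divergent. Among all 1905 pairs of overlapping genes in the table, 70.6% were convergent and 7.03% divergent. Choosing 3′ UTR peaks itself favours facing 3′ ends, so nothing is read from this contrast. By peaks, 461 of 517 lay over a convergent pair. The spans of the partners overlapped in 402 of the 404 convergent pairs, by a median of 79 bases (range 1 to 1684). Over all 404 the median overlap was 4.65% of the shorter gene. In 296 of the 404 convergent pairs the overlap was under 10% of the shorter gene, and in 36 it was at least 25%. Of the 881 genes, 858 were protein coding, 6 were lncRNA genes and 3 were MIR genes. A further 10 had no RefSeq biotype.

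**Figure D1:**
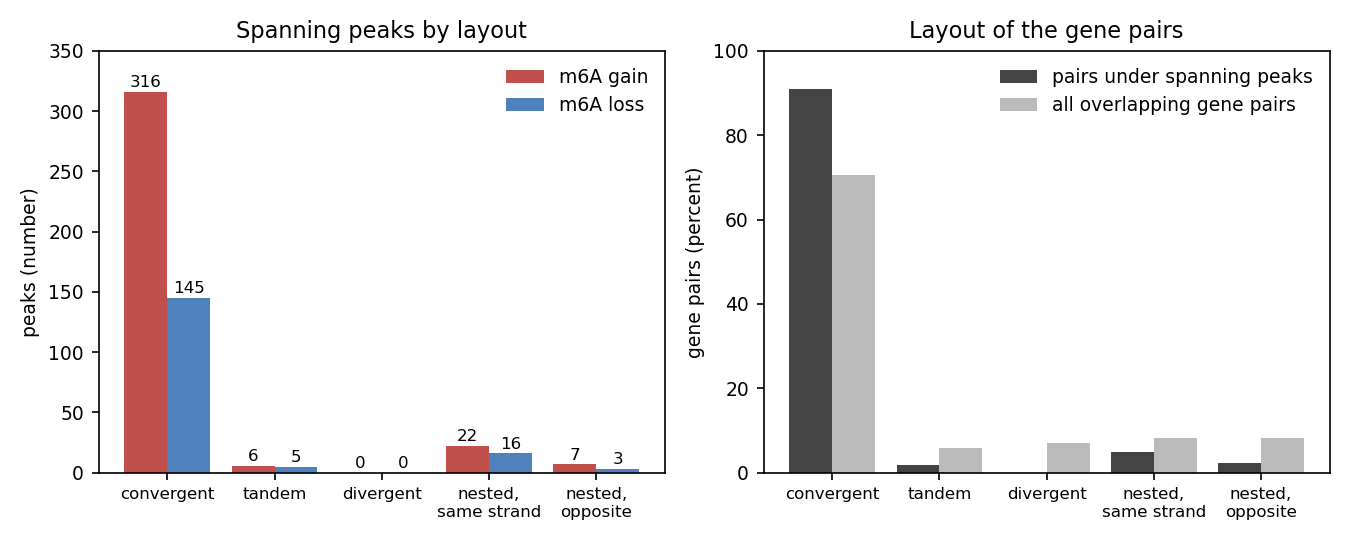
Left, number of spanning 3′ UTR peaks with an m6A gain or loss in dcl1, by strand layout of the genes under them; right, percent of gene pairs in each layout, for pairs under spanning peaks and for all overlapping pairs of the expression table. Convergent pairs hold 316 gains and 145 losses, and make up 91.0% of pairs under these peaks against 70.6% of all overlapping pairs.

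Every peak lay wholly within the annotated span of at least 1 gene, and most only reached into the neighbour. Peak starts in the authors' table count from 0: of all 3′ UTR peaks, 1183 begin 1 base before a gene's start, 0 begin at it, and 1186 end exactly at a gene's end. With starts moved by that base, as in all positions given here, 453 of 517 peaks lay wholly within exactly 1 gene and 64 within 2 or more. Moved this way, 515 peaks still overlap 2 genes.

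Over convergent pairs, 425 peaks were held whole by 1 gene, 229 by the plus-strand gene and 196 by the minus-strand gene. Their centres lay at a median of -225 bases from the holding gene's 3′ end, inside the gene (quartiles -285.5 and -163.5 bases), and 386 of the 425 reached exactly to that end. They extended a median of 69 bases, or 16.6% of the peak, into the other gene. In 135 peaks that share was under 10%, and in 54 it was at least 50%. A further 36 peaks were held by both genes, all in pairs with overlaps of 99 to 977 bases.

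**Figure D2:**
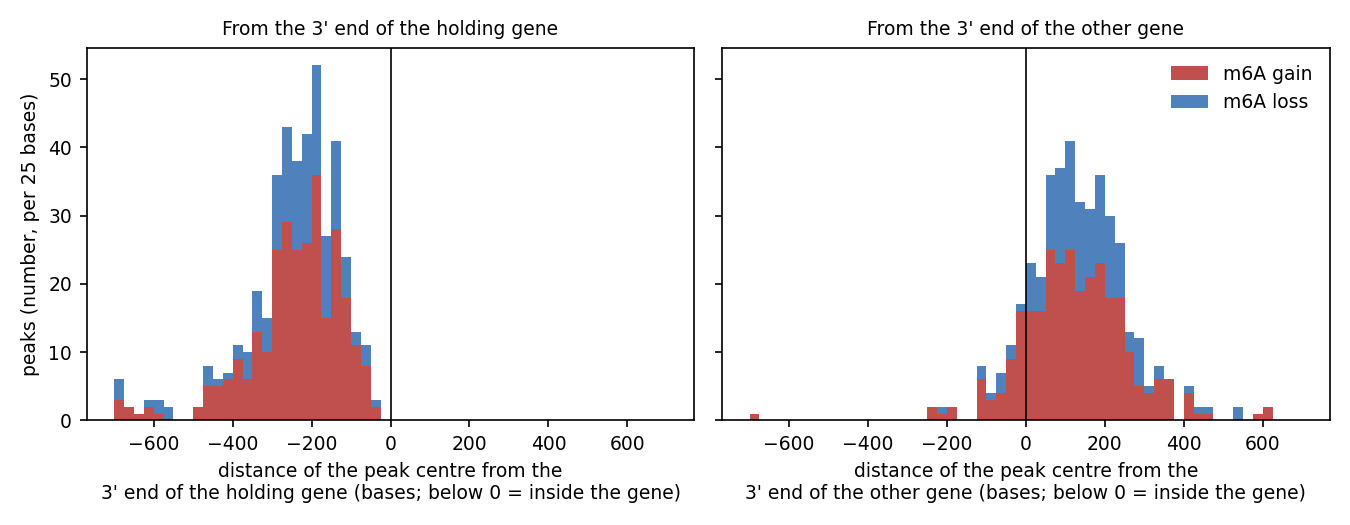
Distance in bases from the centre of each of the 425 convergent peaks held by 1 gene to the 3′ end of that gene (left) and of the other gene (right); negative distances are inside the gene, distances beyond 700 bases are drawn at the edges, and colours give the m6A direction. Centres lie at a median of -225 bases from the holding gene's end and 125.5 bases past the other gene's end.

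At the edge of the rule, as deposited, the peak of NF-YA9 and AT3G20920 (chromosome 3, 7328107 to 7328576, log2 0.30) and the peak of AT3G57620 and AT3G57630 (log2 -0.253) share 1 base with their second gene. Just outside it, the peak of CFM3B ends 2 bases from its neighbour and that of AT5G64160 3 bases from its neighbour.

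In m6A, gains outnumbered losses. The authors' log2 change (dcl1 over wild type) was positive for 351 spanning peaks and negative for 166. Gains were 67.9% of these peaks, against 59.9% of the 2389 3′ UTR peaks over 1 gene and 60.3% of all peaks. At the authors' FDR below 0.05 there were 432 spanning peaks (83.6%), against 80.2% of peaks over 1 gene and 79.6% of all. Median sizes were 0.291 for gains and -0.331 for losses, beside 0.278 and -0.291 over 1 gene. A log2 change of 1 was reached by 5 gains and 17 losses. Over 1 gene it was reached by 25 gains and 47 losses (1.05% and 1.97% of peaks), and among all peaks by 1.48% and 2.57%. These classes were not tested against each other, since peaks are not replicates and every listed peak had already passed p below 0.05. Overlapping peaks also share reads, and the 517 merge into 440 stretches.

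By layout, gains were 316 of 461 convergent peaks (68.5%), 22 of 38 over genes nested on the same strand, 7 of 10 over genes nested on opposite strands, and 6 of 11 tandem peaks. Where the holding gene was the more abundant of a convergent pair in FPKM (255 peaks), 185 were gains (72.5%). Where it was the less abundant (170 peaks), 103 were gains (60.6%). Of the 36 peaks held by both genes, 28 were gains. These shares are counts without a test.

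The authors name 1 gene per peak, and that gene was not always under it. It lay under the peak for 444 of 517, and elsewhere for 73 (14.1%), with a median gap of 1426 bases for the 65 whose gene is in the table. Of peaks over 1 gene, 49.6% were assigned to a gene not under them. Among the 453 peaks held by 1 gene, the assigned gene was the holder for 386 (85.2%), another gene under the peak for 17, and neither for 50. In 110 of the 517 peaks the assigned gene was not called changed in RNA, while another gene under the peak was. Of all genes tested, 30.6% were called, so nothing is read from this count.

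Input RNA of the genes under these peaks was called changed in both directions. The share risen was near that of all genes and the share fallen was larger, a contrast that was not tested. Of 881 genes, 800 averaged at least 1 FPKM and were tested. Of these, 140 rose (17.5%) and 141 fell (17.6%), 35.1% in all (limma on log2(FPKM + 1), adjusted p under 0.05). Over all genes tested, 30.6% were called, 17.8% up and 12.8% down. The median log2 change was 0.00 for the 800 genes and 0.03 for all. The balance turned with scaling: after quantile normalization 105 rose and 208 fell. All 6 libraries gave 281 changed genes. With wild-type replicate 1 left out there were 163, and with wild-type replicate 2 left out 160 (77 and 80 of them fallen). With dcl1 replicate 2 left out, 93 genes fell. A change of at least 1 on the log2 scale was called for 28 risen and 9 fallen genes of the 800, beside 4.18% risen and 1.22% fallen of all genes tested.

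Of 363 pairs with both genes tested, 14 had both genes up, 8 both down and 20 called in opposite directions. In 74 pairs 1 gene rose and in 89 pairs 1 gene fell while the partner was not called, and in 158 neither was called. Among all 8171 neighbouring pairs tested, 3.22% had both genes up, 1.7% both down, 3.35% opposite calls, 38.7% a call on 1 gene alone and 53% no call. For the 363 pairs, opposite calls were 5.51% and calls on 1 gene alone 44.9%. Across the 363 pairs the log2 changes of the partners had r = 0.01, against 0.10 for all 8171 neighbouring pairs (a description across pairs that share 6 libraries). The difference between partners, tested with limma within each library, passed in 139 of 363 pairs (38.3%). It passed in 30.6% of all pairs within 1000 bases and in 32.5% of overlapping pairs. With wild-type replicate 2 left out, 92 pairs passed. Partners also differed in level: the FPKM ratio of the stronger to the weaker gene had a median of 3.40, was at least 10 in 63 pairs and was under 2 in 105.

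RNA changes of the holding gene and of its partner are set side by side here, by m6A direction. Among convergent peaks held by 1 gene with both genes tested, 251 were gains. There the holding gene had a median log2 RNA change of -0.10 (quartiles -0.28 and 0.08), with 27 up and 70 down, and the partner -0.03 (quartiles -0.22 and 0.15), with 27 up and 49 down. For the 116 losses the holding gene had a median of 0.19 (quartiles 0.03 and 0.49), with 46 up and 1 down. The partner had 0.00 (quartiles -0.23 and 0.20), with 20 up and 18 down. Of all genes tested, 17.8% were up and 12.8% down. Over 1 gene, medians were -0.08 for gains and 0.17 for losses. The m6A and RNA changes may rest on the same input libraries, so no relation was tested. Whether FPKM counting followed the strand is not stated, so reads from an overlap could count for either gene.

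**Figure D3:**
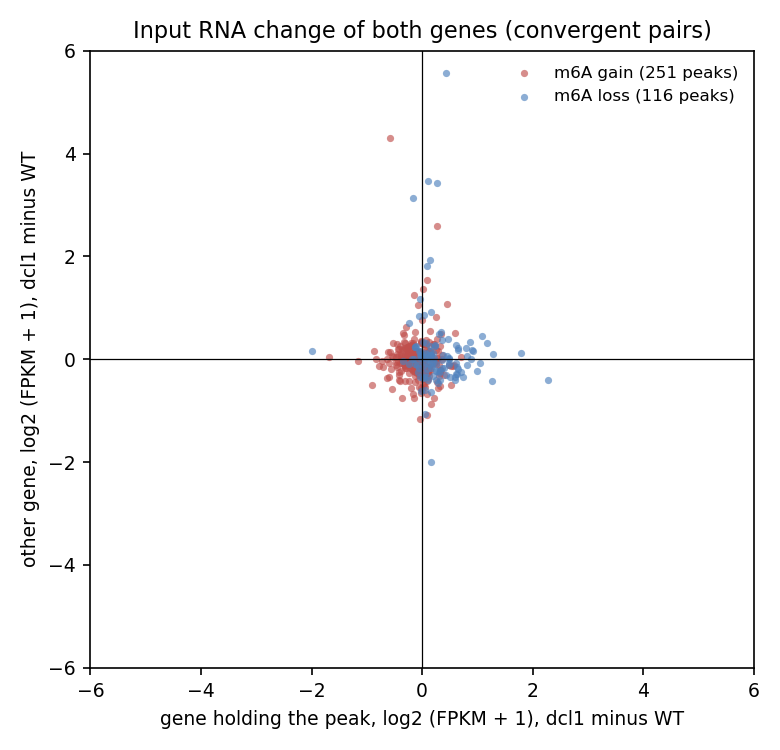
Input RNA change (log2 of FPKM + 1, dcl1 minus wild type) of the gene holding the peak against that of the other gene, for 367 convergent peaks held by 1 gene with both genes tested; each point is a peak, coloured by m6A direction. The 116 losses lie mostly to the right of 0 (median 0.19) and the 251 gains have a median of -0.10, while on the vertical axis the medians are 0.00 and -0.03; points far up the vertical axis are pairs whose strongly risen gene does not hold the peak.

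The most direct view of a shared 3′ end came from 41 convergent pairs in which each gene held a peak of its own. Their spans overlapped by 1 to 391 bases (median 103). Both peaks gained m6A in 27 pairs and both lost it in 3. In the other 11 pairs the peaks moved in opposite directions although the spans of their genes overlap, and in 5 of these both peaks had an authors' FDR under 0.05. In those 11, the genes holding the lost peak had RNA changes from -0.10 to 1.05 (median 0.29), and 5 rose and 0 fell. The genes holding the gained peak had changes from -0.45 to 0.26 (median -0.08), and 0 rose and 4 fell. Of these 9 calls, those on AT2G19710, AT5G20130, ROC7 and AT4G10480 were lost in 4 or 5 of 6 fits that left out 1 library (limma adjusted p = 0.056 to 0.13). The within-pair test passed in 5 of the 11, and in 8 of the 30 pairs whose peaks moved alike. Over all features, 17.8% of genes tested rose, 12.8% fell, and 30.6% of neighbouring pairs passed the within-pair test. These 11 pairs were chosen after their values were seen, so nothing is read from their counts.

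**Figure D4:**
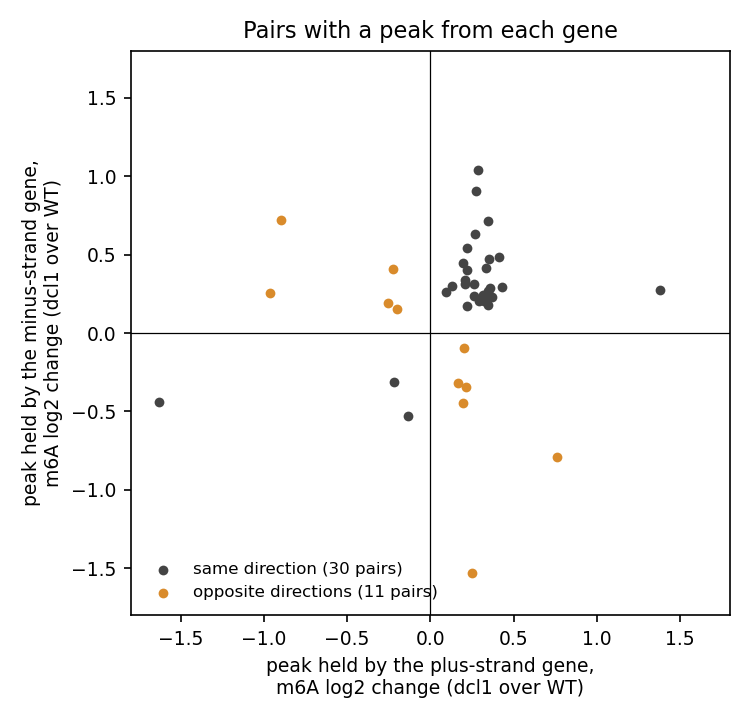
The authors' m6A log2 change (dcl1 over wild type) of the peak held by the plus-strand gene against that of the peak held by the minus-strand gene, for the 41 convergent pairs with a peak from each gene. Of the pairs, 30 lie in the quadrants of equal sign (27 gains, 3 losses) and 11 in the quadrants of opposite sign.

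One of the 11 joins AT2G19710, annotated as a regulator of Vps4 activity, and rps15ab, a ribosomal protein gene. The peak held by AT2G19710 had an m6A log2 change of -0.964 and that held by rps15ab 0.255 (authors' FDR 5.0e-13 and 0.059). AT2G19710 had 3.00, 3.37 and 3.61 FPKM in wild type and 4.28, 5.24 and 6.0 FPKM in dcl1. For rps15ab the values were 11.2, 11.1 and 12.3 FPKM in wild type and 8.99, 8.74 and 8.72 FPKM in dcl1. Neither gene's groups overlapped, and the RNA moved up for the first (log2 0.50, limma adjusted p = 0.020) and down for the second (log2 -0.35, limma adjusted p = 0.011). The call on AT2G19710 was lost in 4 of 6 fits with 1 library left out, those without wild-type replicates 1 and 2 and dcl1 replicates 2 and 3 (adjusted p = 0.056 to 0.071). The within-pair difference was 0.85 (adjusted p = 0.0029).

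ROC7, a cyclophilin gene, and AT5G58720, which encodes a Smr-domain protein, were alike in this. The ROC7 peak had a log2 change of 0.194 and the AT5G58720 peak -0.444. ROC7 had 93.5, 82.0 and 94.6 FPKM in wild type and 69.8, 73.6 and 77.8 FPKM in dcl1. AT5G58720 had 16.2, 13.5 and 15.6 FPKM in wild type and 20.7, 23.4 and 27.7 FPKM in dcl1. The groups of both genes were apart, with ROC7 lower and AT5G58720 higher in dcl1 (log2 -0.28 and 0.63). The ROC7 call was lost in 4 of 6 fits with 1 library left out, those without wild-type replicates 1 and 3 and dcl1 replicates 1 and 2 (limma adjusted p = 0.068 to 0.11). The difference between these neighbours was -0.91 (limma adjusted p = 9.7e-04).

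AT5G51380, annotated as an RNI-like superfamily gene, and AT5G51390, with no described function, held peaks of 0.764 and -0.793 (authors' FDR 0.035 and 0.072). AT5G51390 had 2.00, 1.57 and 2.78 FPKM in wild type and 5.02, 5.43 and 5.72 FPKM in dcl1, with no overlap (log2 1.05, limma adjusted p = 0.0023). Its partner had 2.28, 1.82 and 3.14 FPKM in wild type and 1.82, 2.49 and 2.29 FPKM in dcl1, and these ranges overlap. Not every such pair changed in RNA: AT5G63280 and AT5G63290 held peaks of 0.253 and -1.53 (authors' FDR 0.063 and 0.052), with RNA changes of 0.16 and 0.15 (adjusted p = 0.23 and 0.34). The leaf polarity gene KAN held a loss of -0.341 beside a gain of 0.214 in AT5G16550, and its RNA change of 0.38 did not pass (adjusted p = 0.11). Without wild-type replicate 3 it was 0.57 and passed.

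Among the largest losses, RRTF1, a redox-responsive transcription factor, and AT4G34412 share 301 bases on chromosome 4. A peak within both genes (16453024 to 16453260) had an m6A log2 change of -2.47 (authors' FDR 1e-136). A second, held by AT4G34412 alone (16452960 to 16453531), had -1.64. RRTF1 had 0.565, 0.542 and 1.85 FPKM in wild type and 58.3, 99.9 and 124 FPKM in dcl1. RRTF1 met the minimum of 1 FPKM only through dcl1 (mean 94.0 FPKM, against 0.986 FPKM in wild type). How far the m6A changes rest on this low wild-type level was not tested. AT4G34412 had 7.36, 6.66 and 8.55 FPKM in wild type and 11.5, 9.44 and 10.7 FPKM in dcl1. Both genes were higher in every mutant library, by 5.58 and 0.44 on the log2 scale, and their changes differed by 5.14 (limma adjusted p = 4.5e-05). The call on AT4G34412 (adjusted p = 0.022) was lost in 4 of 6 fits with 1 library left out, those without wild-type replicates 1 and 2 and dcl1 replicates 1 and 3 (adjusted p = 0.061 to 0.072).

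AT4G24380 and AFB4, an auxin receptor of the F-box family, overlap by 644 bases and carried losses of -1.85 and -1.75. AT4G24380 had 7.57, 9.38 and 12.9 FPKM in wild type and 88.6, 131 and 142 FPKM in dcl1. AFB4 had 3.69, 3.68 and 4.12 FPKM in wild type and 4.08, 4.32 and 4.26 FPKM in dcl1, ranges that overlap. The first rose by 3.47 on the log2 scale (SE 0.22), and AFB4 had a change of 0.11 (SE 0.08, limma adjusted p = 0.32). The peak of -1.85 lies within both genes and that of -1.75 only within AFB4, yet the authors assign the second to AT4G24370, which is not under it.

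The lowest value, -4.25, belongs to a peak held by AT3G24870, annotated as a helicase/SANT-associated protein, which reaches 18 bases into AT3G24860. RNA of both genes overlapped between genotypes: AT3G24870 averaged 2.70 ± 0.0683 FPKM in wild type and 2.60 ± 0.274 FPKM in dcl1 (SD, n = 3 each). AT3G24860 averaged 5.51 ± 0.680 and 6.26 ± 0.574 FPKM. The authors' FDR for this peak was 6.8e-04. A loss of -1.70 was held by AT2G35658, whose RNA rose from 0.733 ± 0.123 to 2.52 ± 0.813 FPKM beside CTF2A (log2 1.00, limma adjusted p = 0.0052). CTF2A itself had 14.0 ± 3.09 and 11.7 ± 1.32 FPKM; its change of -0.22 passed only without wild-type replicate 3 (-0.41, adjusted p = 0.025).

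The largest gains were in pairs with modest RNA changes. The largest, 1.38, was a 91-base peak held by AT3G56030, a tetratricopeptide repeat gene, of which 56 bases lie in UGP3, a plastid UDP-glucose pyrophosphorylase of sulfolipid synthesis. A separate peak of 0.275 was held by UGP3. AT3G56030 averaged 1.95 ± 0.172 FPKM in wild type and 1.62 ± 0.154 FPKM in dcl1, with overlapping ranges. UGP3 had 28.5, 28.3 and 27.8 FPKM in wild type and 24.9, 22.9 and 24.3 FPKM in dcl1. UGP3 was lower in each mutant library (log2 -0.22, limma adjusted p = 0.037), but the call was lost whichever of the 6 libraries was left out (adjusted p = 0.050 to 0.11).

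The gain of 1.32 held by the pentatricopeptide repeat gene AT1G12775 touches UGE1, a UDP-glucose 4-epimerase, by 4 bases. AT1G12775 rose from 1.39 ± 0.123 to 2.61 ± 0.257 FPKM (log2 0.59, limma adjusted p = 0.0055). UGE1 went from 16.6 ± 2.82 to 24.3 ± 4.74 FPKM (log2 0.52, adjusted p = 0.042). That call was kept only without wild-type replicate 3, and was lost in the other 5 fits with 1 library left out (adjusted p = 0.050 to 0.13). The gain of 1.13 was held by AT4G15830, an ARM repeat gene lower in dcl1 (log2 -0.37), beside AT4G15820 (log2 -0.07, adjusted p = 0.52). The AT4G15830 call (adjusted p = 0.018) was lost without dcl1 replicate 1 or 2 (adjusted p = 0.057 each).

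The remaining named gains were smaller. EMB1793, a LYR-family gene of iron-sulfur cluster formation, held 1.04 while its partner AT1G76050 held 0.289. The EMB1793 RNA change was -0.25 (limma adjusted p = 0.098). The DCD-domain gene AT3G11000 held 1.01 beside the receptor-like gene RLP34, whose RNA fell (log2 -0.55, adjusted p = 0.028). The RLP34 call was lost in 4 of 6 fits with 1 library left out, those without wild-type replicates 1 and 3 and dcl1 replicates 2 and 3 (adjusted p = 0.051 to 0.085). AT5G44730, a hydrolase gene, held 0.905 and rose (log2 0.53, adjusted p = 0.018), while AT5G44720, which held 0.277, had a change of -0.13. The AT5G44730 call did not hold in 3 of 6 fits with 1 library left out, those lacking wild-type replicate 1, wild-type replicate 2 and dcl1 replicate 1 (adjusted p = 0.051 to 0.067).

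Of the 6 pairs that parted most in RNA, RRTF1 with AT4G34412 and AT4G24380 with AFB4 are described above, each with a peak in both genes and a peak held by the gene that changed less. WRKY40, a transcription factor of defence responses, had 2.68, 4.46 and 9.12 FPKM in wild type and 76.5, 124 and 160 FPKM in dcl1. Its convergent partner AT1G80850, a DNA glycosylase gene, had 10.7, 10.3 and 10.5 FPKM in wild type and 7.35, 5.87 and 6.80 FPKM in dcl1. The first was higher and the second lower in each mutant library, a difference of 4.89 (SE 0.40, limma adjusted p = 1.7e-04). The peak between them was a gain of 0.507 held by AT1G80850, with 19.1% of it in WRKY40.

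MYB73, a stress-related transcription factor, rose by 3.14 on the log2 scale. The peak it shares with HMA1, a metal-transporting ATPase of the chloroplast envelope, was held by HMA1 with a loss of -0.203. HMA1 had an RNA change of -0.17 (limma adjusted p = 0.11), which passed only after quantile normalization (-0.27, adjusted p = 0.030). BT5, a BTB and TAZ domain protein, rose from 5.28 ± 3.12 to 62.2 ± 15.5 FPKM. The loss of -1.38 was held by its partner AT4G37608, which had 2.06 ± 0.460 and 2.67 ± 0.486 FPKM. UMAMIT33, of an amino acid transporter family, had 0.0865, 0.0215 and 0.0260 FPKM in wild type and 6.38, 4.52 and 6.0 FPKM in dcl1. UMAMIT33, and with it the pair, met the minimum of 1 FPKM only through dcl1 (mean 5.63 FPKM, against 0.0447 FPKM in wild type). TET7, a tetraspanin, had 18.0, 16.8 and 18.9 FPKM in wild type and 13.6, 14.1 and 13.2 FPKM in dcl1. The pair parted by 3.02 (limma adjusted p = 1.8e-05) under a gain of 0.414 that lies within both genes and missed the authors' FDR of 0.05 (0.091). Another spanning peak over this pair was a gain of 0.417.

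**Figure D5:**
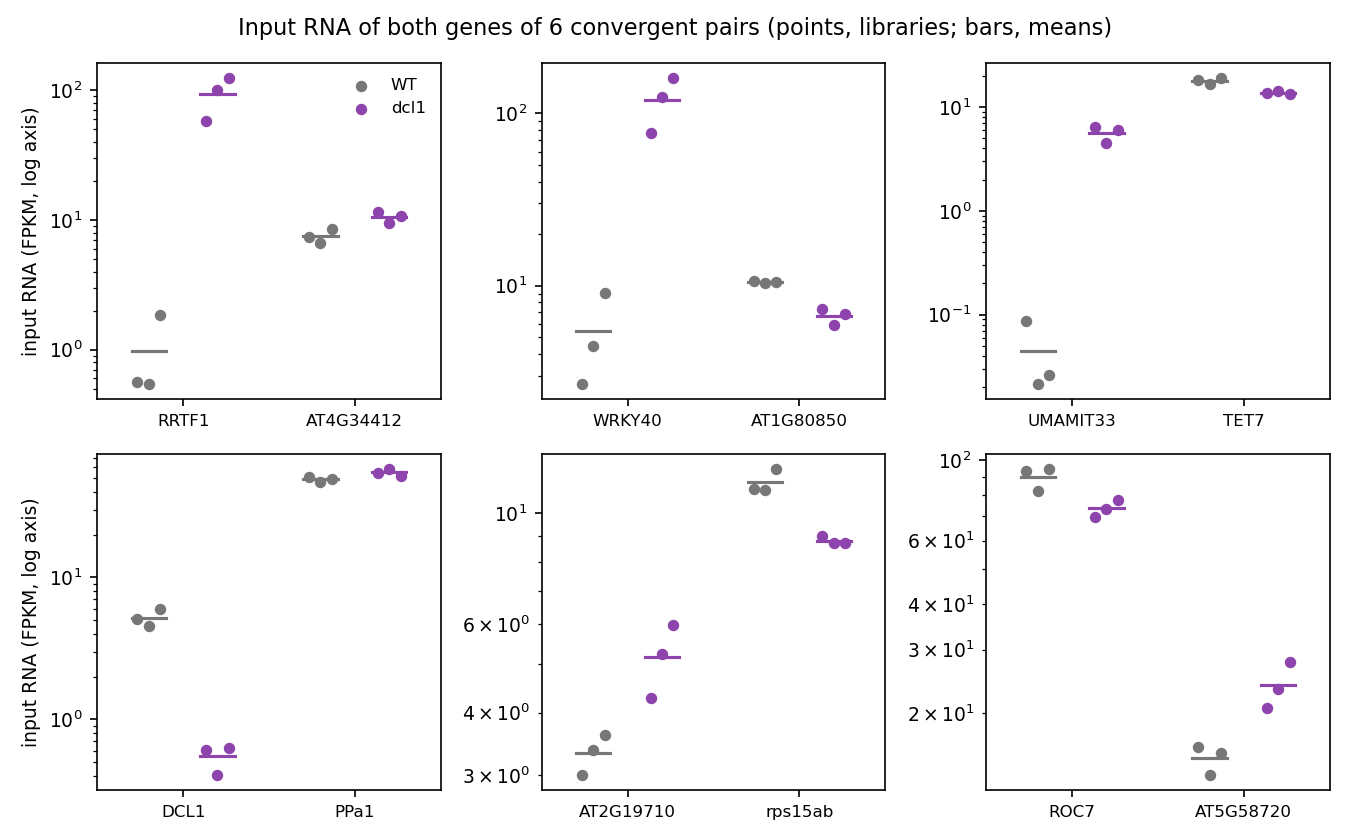
Input FPKM (log axis) of both genes of 6 convergent pairs under spanning peaks, with 1 point per library and bars at the means of 3 wild-type (grey) and 3 dcl1 (purple) libraries. In 5 pairs both genes were called changed (limma adjusted p under 0.05), in opposite directions for all of these but RRTF1 and AT4G34412. The calls on AT4G34412, AT2G19710 and ROC7 were each lost in 4 of 6 fits with 1 library left out. PPa1 beside DCL1 lies within 46.8 to 58.2 FPKM, with groups apart but no call.

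Opposite calls within a pair were also found for 4 other named pairs. In iqd33, an IQ-domain gene, FPKM went from 2.83, 2.90 and 3.22 to 18.5, 17.3 and 19.0, while AT5G35680, annotated as a nucleic acid-binding protein, went from 66.6 ± 1.34 to 50.4 ± 5.42. The peak held by iqd33 was a loss of -0.263. In AT1G67920 RNA rose (log2 1.26) over a loss of -1.16 (authors' FDR 0.059) that reaches 1 base into AT1G67930, a Golgi transport gene that fell (log2 -0.42). AT2G01400 rose (log2 0.53) and AT2G01410 fell (log2 -0.51) under a gain of 0.198 (authors' FDR 0.11) held by the first. BRCC36A, a deubiquitinase of DNA repair, rose (log2 0.59) and held a loss of -0.379. Its partner AT1G80200 fell (log2 -0.40, limma adjusted p = 0.045), a call lost in 5 of 6 fits, all but the one without dcl1 replicate 1 (adjusted p = 0.085 to 0.12).

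DCL1 shares 58 bases with PPa1, a soluble inorganic pyrophosphatase. The peak held by DCL1 (chromosome 1, 30693 to 31227) had an m6A log2 change of -1.63. The authors assign that peak to AT1G01046, which is not under it. DCL1 RNA averaged 0.547 FPKM in dcl1, and how far the m6A value rests on this low level was not tested. The peak held by PPa1 (31170 to 31770) had -0.442. PPa1 had 51.3, 46.8 and 49.2 FPKM in wild type and 54.6, 58.2 and 52.3 FPKM in dcl1. Its groups did not overlap, yet its change of 0.16 missed the threshold (limma adjusted p = 0.12), and the partners differed by -2.16 (limma adjusted p = 6.4e-05).

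All 3 MIR genes under these peaks are nested in the span of another gene, and MIR408 alone of them was tested. MIR408, a copper-responsive microRNA locus, had 0.0846, 0.126 and 0.281 FPKM in wild type and 1.46, 3.04 and 1.41 FPKM in dcl1 (log2 1.31, limma adjusted p = 0.0044). MIR408 met the minimum of 1 FPKM only through dcl1 (mean 1.97 FPKM, against 0.164 FPKM in wild type), so its test is no separate support. It lies opposite AT2G47020, a peptide chain release factor gene that holds the peak (-0.525) and had an RNA change of 0.12. The authors assign that peak to MIR408. MIR860 lies in the end of FC1, a ferrochelatase of haem synthesis, on the same strand, under peaks of -1.50 and -1.65. FC1 had 19.1, 18.8 and 18.8 FPKM in wild type and 36.6, 52.2 and 63.0 FPKM in dcl1, all higher (log2 1.34, limma adjusted p = 0.0019). MIR860 had at most 0.0713 FPKM in any library, yet both peaks are assigned to it. MIR853 lies within AT3G23325, a splicing factor gene, whose peak of 0.112 had an authors' FDR of 0.13.

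In the nested and tandem layouts, reads shared by genes on the same strand cannot be divided with certainty. BON1, a copine that restrains defence, lies within AT5G61910 and their peaks had -0.905 and -0.877. BON1 had 5.39, 5.46 and 7.12 FPKM in wild type and 6.31, 9.87 and 10.1 FPKM in dcl1. These ranges overlap, and the change of 0.47 (limma adjusted p = 0.086) passed only without dcl1 replicate 1 (0.66, adjusted p = 0.014) or with a replicate block (adjusted p = 0.037). The tandem pair AT4G23895 and AT4G23900, a nucleoside diphosphate kinase gene, had peaks of -0.394 and -0.397 and RNA changes of 0.08 and 0.20 (adjusted p = 0.54 and 0.15). AT4G37560 lies within the lncRNA gene AT4G37553 on the opposite strand, under a gain of 0.395, and neither RNA passed.

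SPL3, a flowering regulator targeted by miR156, lies opposite the lncRNA gene AT2G33815. SPL3 had 14.2, 10.4 and 14.9 FPKM in wild type and 24.1, 26.7 and 31.4 FPKM in dcl1, without overlap (log2 1.01, limma adjusted p = 0.0031). Its peak gained 0.891, and the authors assign it to the lncRNA gene, which averaged 0.702 ± 0.271 and 1.05 ± 0.300 FPKM. HSP101, a disaggregating chaperone, held a loss of -1.54 while its RNA went from 4.90 ± 1.81 to 13.3 ± 3.53 FPKM (log2 1.29, adjusted p = 0.011). Its partner AT1G74300 had a change of 0.10. SPL3, HSP101, MTB and CSTF77 were chosen after their values were seen.

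The peaks over 3 genes rest on annotated upstream reading frames that have rows of their own with the span of the host gene. MBD9, a methyl-CpG-binding protein, meets HB-1, a homeodomain factor, and the upstream frame AT3G01472 under a loss of -0.30. HB-1 averaged 3.97 ± 1.25 and 8.17 ± 3.03 FPKM (log2 0.86, limma adjusted p = 0.055), passing without dcl1 replicate 3 (1.14, adjusted p = 0.019) and with a replicate block (adjusted p = 0.041). AT5G41980 meets the kinase gene WNK8 and its upstream frame AT5G41992 under 2 peaks listed at the same position, each with -0.239. None of the RNA changes at that locus passed.

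Of the m6A machinery and of 3′ end formation, 1 gene each was under these peaks. Of 25 m6A genes 23 were tested, with 2 up and 3 down (median log2 -0.06), beside 30.6% called of all genes tested. HIZ1 and ECT9 rose, and the demethylase genes ALKBH9C and ALKBH10B (log2 -0.40 and -0.46) and the reader ECT7 fell. Among them, MTB (EMB1691 in RefSeq), a subunit of the methyltransferase, lies under such a peak, holding a loss of -0.426. MTB had 5.93, 6.86 and 5.94 FPKM in wild type and 5.59, 5.78 and 5.48 FPKM in dcl1, and its change of -0.13 missed the threshold (limma adjusted p = 0.27). Of 20 genes of 3′ end formation 19 were tested, and 0 passed with limma, with 2 at an unadjusted p under 0.05 (median log2 0.12). CSTF77, a cleavage stimulation subunit, reaches 14 bases under the loss of -0.861 held by PEPR2, a receptor of Pep peptides. CSTF77 averaged 6.31 ± 0.545 and 7.32 ± 0.196 FPKM (log2 0.19, limma adjusted p = 0.12). PEPR2 averaged 0.722 ± 0.0739 and 1.72 ± 0.514 FPKM (log2 0.64, adjusted p = 0.019), a call that ended when wild-type replicate 1 or replicate 2 was left out (adjusted p = 0.057 and 0.065).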

How the data were processed

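The authors' deposited expression table gives FPKM per gene in 6 input libraries, per the file headers. Their deposited peak table gives, per the file headers, a p-value, a log10 FDR (read here as a score) and a log2 m6A change (mutant over wild type) per peak, with annotation and assigned gene. Scaling of the log2 change is not given in the sources used here. The submitters' processing notes name fastp, HISAT2, StringTie, edgeR, HOMER, ChIPseeker and TAIR10. Values of single m6A libraries were not used here.

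Peaks were matched to gene spans of the expression table (TAIR10 positions, 1-based). RefSeq names and biotypes (assembly TAIR10.1) matched 871 of 881 genes by locus. A peak is held by a gene that contains all of it. RNA was tested with limma 3.58.1 (R 4.3.3, variance trend) on log2(FPKM + 1), two-sided, for 17925 genes averaging at least 1 FPKM, with Benjamini-Hochberg adjustment and threshold 0.05. The pseudocount shrinks changes of low genes. The minimum is a mean over both genotypes. Of the named genes, RRTF1, UMAMIT33, MIR408, AT2G35658 and PEPR2 met it only through dcl1, and AT1G80200 and DCL1 only through wild type. Their p-values carry that limit. The pair test fitted log2(FPKM + 1) of gene A minus gene B (A on the plus strand in convergent pairs) over 8171 pairs within 1000 bases. Scripts were tested on simulated data.

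Members, lists and tests were chosen with earlier results of these data known. Named pairs were the 6 largest gains and losses (FDR under 0.05, genes of at least 1 FPKM), up to 6 leading pairs of the pair test, up to 6 with opposite calls, the 2 largest peaks per layout, peaks over 3 genes, MIR genes and DCL1. Others are stated as chosen later. Replicate numbers were not taken as pairs in the main fit. Correlations of same-numbered deviations were 0.085, 0.061 and 0.15, and those of differently numbered ones ran from -0.17 to 0.12. These values cannot decide whether libraries were paired. The design calls the replicates biological. Alternatives were pseudocount, FPKM minimum, scaling, variance trend, replicate block, leaving out each library, overlap minimum and peak thresholds.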

Additional observations from a re-analysis of the deposited data

How the results depend on the processing

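Leaving out 1 input library at a time gave 3209 to 5662 changed genes overall (5480 with all 6), 160 to 275 under the spanning peaks, 80 to 145 of them risen and 77 to 130 fallen. It gave 1477 to 2401 differing neighbouring pairs of all tested (2499 with all 6) and 92 to 138 of those under the peaks. With a minimum of 5 FPKM, fewer pairs were tested and 1509 of all and 87 under the peaks differed. Requiring 25% of the peak in each gene left 240 peaks (172 gains, 68 losses, 189 convergent). An absolute m6A log2 change of at least 1 left 22 (5 gains, 17 losses, 20 convergent). Counting peak starts from 0, an alternative added after seeing the data, left 515. With the replicate numbers as a replicate block, 245 genes and 138 pairs under the peaks were called. The block lost the calls of UGP3, AT1G80200, AT5G20130 and AT4G10480 and added HB-1, BON1, HAOX1 and the difference of MBD9 and HB-1. Named calls were also lost with no FPKM minimum (UGE1, adjusted p = 0.069; RLP34, 0.051; AT4G10480, 0.055), with quantile normalization (UGE1, 0.057; AT5G20130, 0.11), with no variance trend (UGP3, 0.050; AT4G10480, 0.062), with a pseudocount of 0.1 FPKM (AT1G80200, 0.051) and with one of 5 FPKM (the differences of AT2G47020 and MIR408, 0.056, and of PEPR2 and CSTF77, 0.33). With 1 library left out, the difference of PEPR2 and CSTF77 was lost in 5 of 6 fits (adjusted p = 0.081 to 0.10; kept without dcl1 replicate 1), and that of AT5G44720 and AT5G44730 in 4 of 6 (0.058 to 0.072; kept without wild-type replicate 3 or dcl1 replicate 2). EDS5 held a gain of 0.203 beside AT4G39040 and had an RNA change of -0.45 (limma adjusted p = 0.051). EDS5 was added by both scalings, without a trend and without wild-type replicate 2 (-0.62, limma adjusted p = 0.011). EMB1793 and HMA1 were added by quantile normalization. No named value that passed changed sign at any of these settings. Unknown depth limits what can be said of low genes.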
